A study of Mus musculus with 6 samples.

Results

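The cytosolic translation initiation factors and elongation factors of the mouse, with the binding proteins, the kinase and the methyltransferases that carry the same gene names, were followed in naive CD8 T cells. Members were chosen by symbol alone: names beginning with Eif and a number from 1 to 6, or with Eef1 or Eef2, leaving out the Eif2ak kinases. Of 55450 genes in the table, 75 matched, and 63 of those averaged at least 1 CPM (read counts relative to normalised library size) over the 6 libraries. These 63 comprise 61 protein-coding genes and the pseudogenes Eif1-ps1 and Eif4a-ps4. The other 12 averaged at most 0.562 CPM, 7 of them with 0 counts in every library. Eef1a2, the muscle and neuron form of elongation factor 1A, and Eif4e1b, an oocyte form of the cap-binding protein, were among the 7. The member just above the threshold was Eif4ebp3 at 1.2 CPM, and the one just below was the pseudogene Eif3s6-ps2 at 0.562 CPM.

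The cells had been sorted as Ly6C-CXCR3- and came from lymph nodes of CD103KO (Itgae-/-) and WT (C57BL/6) mice, with 3 libraries of polyadenylated RNA in each group. Itgae encodes CD103, the alpha E integrin chain, and the comparison asks how these resting cells differ when it is missing. Age, sex, the origin and strain background of the Itgae-/- line and whether the libraries stem from separate animals are not stated in the sources used here. The p-values therefore describe the spread of these libraries, which may be technical.

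Itgae, on chromosome 11, averaged 65.6 ± 3.90 CPM in CD103KO libraries and 482 ± 19.3 CPM in WT libraries (SD, n = 3 each; log2 fold change -2.88, SE 0.06, adjusted p = 4.058e-08, edgeR quasi-likelihood test). Total expected counts were 68292475 to 76044311 in CD103KO libraries and 74438908 to 94347034 in WT libraries. WT replicates 1 and 2 stand apart: they had 5012 and 7628 counts of Xist, the X-inactivation RNA, and 0 of the Y-linked Ddx3y, against at most 2 Xist counts and 3612 to 4466 Ddx3y counts in the other 4 libraries. For Eif2s3x, Eif2s3y and many other members, the log2 fold change from a fit with a term for Xist reads is given as well. All CD103KO libraries fall on the same side of this split as WT replicate 3. That fit therefore in effect sets them against WT replicate 3 alone. A member given without this value may move with the split too. The 10 CD8 T cell markers, Cd8a, Cd8b1 and the CD3 chains among them, summed to 9016 to 9267 CPM in CD103KO libraries and 9067 to 9288 CPM in WT libraries. Of these markers 0 passed with edgeR, 2 had every CD103KO library below every WT library (7.36% of all genes tested), and 1 had every one above (6.82%). All 8 B cell markers had positive log2 fold changes and 3 of them passed with edgeR, with summed levels of 31.0 to 36.3 CPM in CD103KO libraries and 25.3 to 28.5 CPM in WT libraries. Most of that sum was Cd79b, at a log2 fold change of 0.01. The other 7 summed to 6.37 to 10.3 CPM in CD103KO libraries and 1.79 to 2.39 CPM in WT libraries, each of them above every WT library, with log2 fold changes from 1.74 to 2.58. All 3 haemoglobin genes were higher in every CD103KO library, although none passed with edgeR, and the erythrocyte and platelet markers summed to 54.1 to 86.8 CPM in CD103KO libraries and 30.8 to 46.9 CPM in WT libraries. The platelet markers Pf4 and Ppbp had at most 3 counts in all libraries together. The 8 myeloid and dendritic markers summed to 2.95 to 3.8 CPM in CD103KO libraries and 2.80 to 4.83 CPM in WT libraries, with 0 counts of Cd14. The 6 stroma markers summed to 126.9 to 166.8 CPM in CD103KO libraries and 136.5 to 150.7 CPM in WT libraries, nearly all of it Pecam1, and the other 5 to 0.455 to 0.767 CPM in CD103KO libraries and 0.147 to 0.428 CPM in WT libraries. The part of these other cell types in the results below was not tested.

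Protein synthesis starts when eIF2, a GTP-binding complex with alpha, beta and gamma subunits, brings the initiator tRNA to the small ribosomal subunit. The cap-binding complex eIF4F and the large scaffold eIF3 then bring in the mRNA, and eIF1, eIF1A, eIF5 and eIF5B set the start codon and join the large subunit. In elongation eEF1A delivers each aminoacyl-tRNA, the eEF1B subunits recharge eEF1A with GTP, and eEF2 moves the ribosome along. Naive T cells make little protein and raise their rate of synthesis on activation, with phosphorylation of eIF2 alpha and the release of eIF4E from the 4E-binding proteins as main points of control.

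No translation factor gene passed the test between CD103KO and WT cells. Of the 63 members, 0 passed with edgeR at an adjusted p of 0.05, where 0.223% of the 13470 genes tested passed, and 0 passed with DESeq2, where 1.02% passed. In bulk RNA such as this, fewer cells of a type and less RNA per cell cannot be told apart. At an unadjusted p under 0.05 there were 8 members, against 8.73% of all genes tested. Lower in CD103KO at that level were Eif2s3x, Eif4a2, Eef1d and Eef1b2, and higher were Eif4g1, Eif5b, Eif3a and Eif3b. Thus 4 of 63 members lay in each direction, where 4.2% of all genes tested were lower and 4.53% were higher. The members had a median log2 fold change of 0.007 against -0.003 for all genes tested, and 28 of 63 members (44.4%) were below 0 against 51.0% of all genes. That balance is not stable: with the term for Xist reads 36 of 63 members were below 0 at a median of -0.02, against 49.2% of all genes, and 14 members changed sign, 13 of them from a value under 0.1 in size. It was also 36 in the 4 libraries without Xist reads, which is nearly the same contrast and not a separate result. With each library left out in turn the number ran from 25 to 40, the highest being 40 without WT replicate 2 and 39 when CD103KO replicate 3 was dropped.

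The intervals bound how large a difference the fit without a term for Xist reads leaves room for. Intervals with that term were not computed, and some members moved with it, such as Eif3j2 from 0.09 to 0.34 on the log2 scale. The 95% interval of the fold change lay within 1.2-fold either way for 52 of the 63 members and within 1.5-fold for 61. The pair outside 1.5-fold was Eif4ebp3, at 1.2 CPM the lowest member, and Eif2s3y, which had 0 counts in part of the WT libraries. The median coefficient of variation over members was 3.93% among CD103KO libraries and 3.5% among WT libraries.

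**Figure D1:**
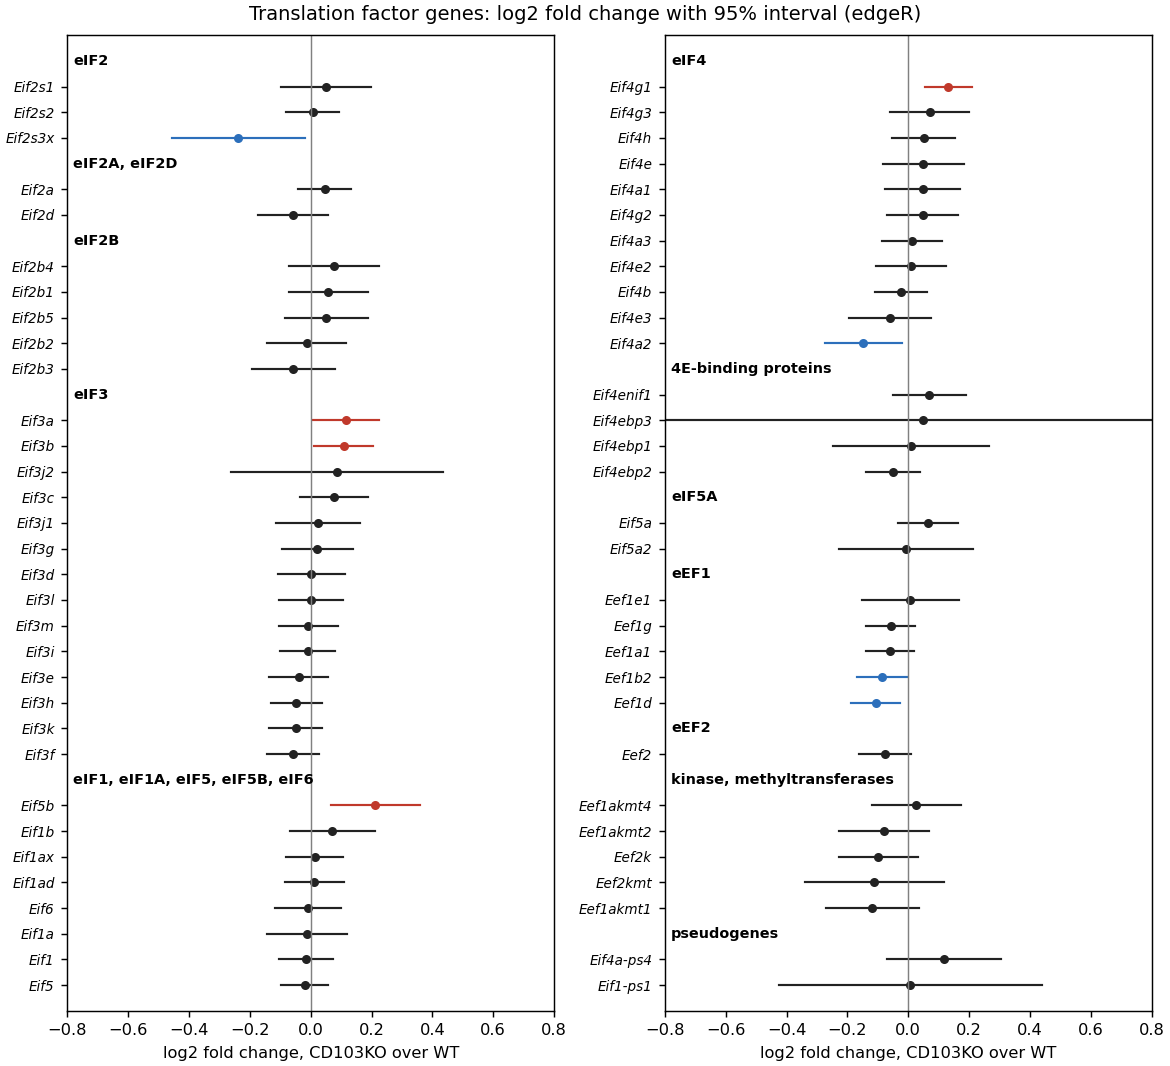
Log2 fold change of CD103KO over WT (x axis) with its 95% interval from edgeR for every member except Eif2s3y, grouped by complex; the interval of Eif4ebp3 runs past the axis. Blue marks the 4 members lower and red the 4 members higher at an unadjusted p under 0.05, none of which passed after adjustment, and the other intervals include 0.

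Among the eIF2 genes, the member with the largest negative log2 fold change was Eif2s3x, which encodes the gamma subunit that binds GTP and the initiator tRNA. Eif2s3x (ENSMUSG00000035150.15, chromosome X, 94188707 to 94212862, GRCm38, minus strand) stood at 279.2, 290.3 and 286.7 CPM in CD103KO libraries and at 369.3, 363.5 and 276.6 CPM in WT libraries. WT replicates 1 and 2, those with Xist reads, were above all other libraries, and WT replicate 3 was below every CD103KO library, so the groups overlapped. The log2 fold change was -0.24 (SE 0.10), and it did not pass (adjusted p = 0.527, edgeR). It turned to 0.045 with a term for Xist reads (SE 0.05) and to 0.0455 in the 4 libraries without Xist reads alone. These fits make nearly the same contrast. Without WT replicate 3, which sets CD103KO libraries against the WT libraries with Xist reads, it was -0.36 and passed (adjusted p = 0.01049, edgeR).

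The Y-linked copy of the same gene showed the reverse layout. Eif2s3y (ENSMUSG00000069049.11, chromosome Y, 1010543 to 1028847, plus strand) stood at 47.6, 52.3 and 43.8 CPM in CD103KO libraries and at 0, 0 and 47.3 CPM in WT libraries. The 0 counts of WT replicates 1 and 2 allow up to 0.0403 and 0.0318 CPM, at 3 counts. WT replicate 3 fell inside the range of the CD103KO libraries, and with the term for Xist reads the log2 fold change was 0.02 (adjusted p = 0.978, edgeR). DESeq2 gave this gene no adjusted p.

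The summed output of the X and Y copies depends on how length is counted. As plain CPM the sum was 326.9, 342.6 and 330.5 in CD103KO libraries and 369.3, 363.5 and 323.9 in WT libraries, so that both WT libraries with Xist reads were above the other 4. The Y copy made up 14.6%, 15.3% and 13.3% of the sum in CD103KO libraries and 14.6% in WT replicate 3. Divided by the longest protein-coding transcript (3647 bases for Eif2s3x and 1836 for Eif2s3y), the sum was 102.5, 108.1 and 102.5 CPM per kb in CD103KO libraries and 101.3, 99.7 and 101.6 CPM per kb in WT libraries, which puts all 6 libraries close together. Divided by the union of exons (3812 and 4161 bases), it was 84.7, 88.7 and 85.7 CPM per kb in CD103KO libraries and 96.9, 95.4 and 83.9 CPM per kb in WT libraries, and the split returned. Which isoforms the cells use was not analysed here, so the data do not settle whether the summed level is equal across the Xist split. The copies are 86.4% identical over 1426 bases. The counts of Eif2s3y were whole in every library, while those of Eif2s3x were not. Gm2223, at 3.79 CPM, is a close copy of Eif2s3x that could take a share of its reads.

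**Figure D2:**
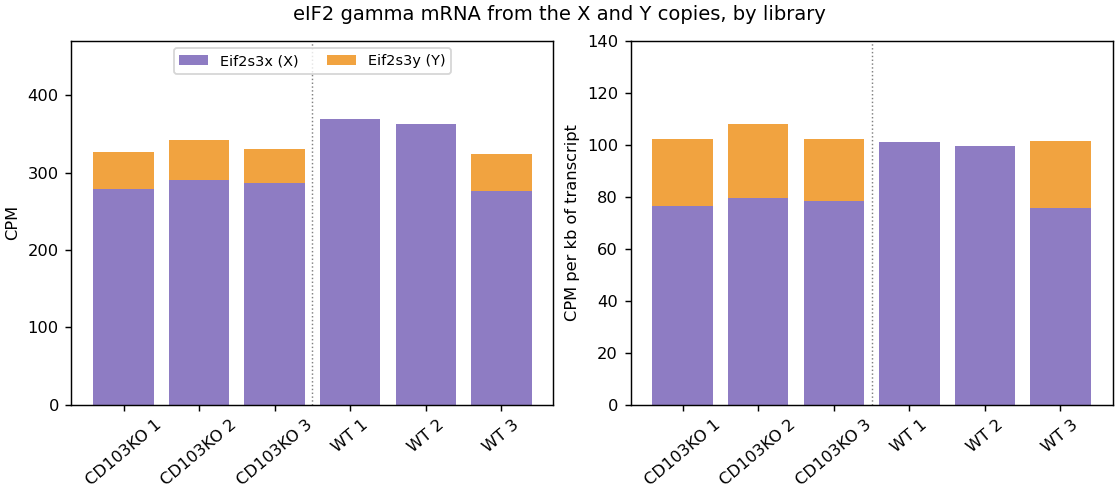
Stacked bars give Eif2s3x (purple) and Eif2s3y (orange) in each library, as CPM on the left and as CPM per kb of the longest protein-coding transcript on the right; the dotted line separates CD103KO from WT libraries. WT 1 and WT 2 have 0 counts of Eif2s3y and the tallest bars on the left, while on the right all 6 bars lie between 99.7 and 108.1 CPM per kb.

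The other eIF2 subunits did not follow the X and Y copies. Eif2s1, the alpha subunit whose phosphorylation halts initiation, averaged 126.6 ± 8.93 CPM in CD103KO and 122.3 ± 8.69 CPM in WT libraries. Eif2s2, the beta subunit, averaged 153.0 ± 3.35 CPM in CD103KO and 152.4 ± 4.03 CPM in WT libraries, with a 95% interval of the log2 fold change from -0.08 to 0.09. The exchange factor eIF2B, which reloads eIF2 with GTP, has 5 subunit genes, and their log2 fold changes ran from -0.06 to 0.08. Eif2b2 and Eif2b5, which encode the beta and the catalytic epsilon subunit, had the highest levels per kb, at 32.7 and 22.3 CPM per kb. Eif2b2 stood at 51.0, 51.3 and 54.4 CPM in CD103KO libraries and at 52.0, 49.6 and 56.4 CPM in WT libraries, with each group spanning much of the other. Its log2 fold change of -0.01 was -0.11 with the term for Xist reads, and that of Eif2b1 went from 0.06 to -0.007. Of the factors linked to tRNA delivery without eIF2, Eif2a stood at 60.2, 61.6 and 61.6 CPM in CD103KO libraries and at 58.5, 58.7 and 60.4 CPM in WT libraries, a difference of 0.05 on the log2 scale. Every CD103KO library lay below every WT library for Eif2d, at 30.8 ± 0.59 CPM in CD103KO and 32.1 ± 0.37 CPM in WT (log2 fold change -0.06, SE 0.05, adjusted p = 0.778, edgeR). Eif2d overlaps Rassf5, at 438 CPM, on the opposite strand, and the strand setting of the counting is not stated in the sources used here, so its counts are uncertain.

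Eif5b encodes the GTPase that joins the large ribosomal subunit, and it was the start-codon and joining factor farthest from 0. Eif5b (ENSMUSG00000026083.12, chromosome 1, 37998010 to 38055579, plus strand) stood at 125, 139 and 152 CPM in CD103KO libraries and at 119, 118 and 123 CPM in WT libraries. Every CD103KO library was above every WT library, and the CD103KO libraries spread more widely than the WT libraries. Its log2 fold change of 0.21 (SE 0.06) did not pass (adjusted p = 0.433, edgeR; 0.151, DESeq2), and it was 0.17 with the term for Xist reads. Across 17 fits, the chosen one included, it stayed above 0, from 0.14 to 0.28, with 0.0687 as the lowest adjusted p (edgeR, without CD103KO replicate 1). These fits reuse the same libraries, and without overlap of the groups the sign had little room to change. The other 7 members of this group had log2 fold changes from -0.02 to 0.07. Among them Eif1, which guards start-codon choice, stood at 417.9, 433.1 and 431.2 CPM in CD103KO libraries and at 441.6, 416.4 and 438.7 CPM in WT libraries. Eif5, which prompts eIF2 to hydrolyse its GTP, averaged 324.6 ± 4.66 CPM in CD103KO and 328.9 ± 1.76 CPM in WT libraries. Eif6, which keeps free large subunits apart from small ones, differed by -0.01 on the log2 scale, and by -0.06 with the term for Xist reads. With that term Eif1a went from -0.01 to 0.06.

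The 14 eIF3 genes lay on both sides of 0. Eif3a and Eif3b, the largest subunit and the scaffold beside it, were the higher ones. Eif3a (ENSMUSG00000024991.8) stood at 449.3, 489.0 and 503.3 CPM in CD103KO libraries and at 453.5, 438.8 and 438.4 CPM in WT libraries, so 1 CD103KO library lay within the WT range. Its log2 fold change was 0.12 (SE 0.05, adjusted p = 0.538, edgeR). Eif3b (ENSMUSG00000056076.13) stood at 255.8, 274.2 and 281.6 CPM in CD103KO libraries and at 252.2, 249.6 and 251.3 CPM in WT libraries. The Eif3b groups did not overlap, and CD103KO replicate 1 was close to the WT libraries. Its log2 fold change was 0.11 (SE 0.04, adjusted p = 0.521, edgeR). Eif3c, another core subunit, was at 0.08, and Eif3d, which can bind the cap of some mRNAs, at 0.002. At the other end Eif3f, a subunit with a deubiquitinase-like fold, was lower in every CD103KO library, at 505.5 ± 3.19 CPM in CD103KO and 526.5 ± 18.5 CPM in WT libraries (log2 fold change -0.06, adjusted p = 0.703, edgeR; -0.11 with the term for Xist reads, adjusted p = 0.635, edgeR). Eif3h, the subunit gene of highest level per kb, stood at 565.9, 590.4 and 583.8 CPM in CD103KO libraries and at 597.9, 587.1 and 613.0 CPM in WT libraries, overlapping at a log2 fold change of -0.05. Eif3k and Eif3e were at -0.05 and -0.04. With the term for Xist reads Eif3h, Eif3k and Eif3e were at -0.08, -0.10 and -0.05, and Eif3c and Eif3d at 0.05 and -0.04. Eif3j2 went from 0.09 to 0.34 with that term, and Eif3l from 0.001 to -0.06. In all, 8 of the 14 had positive and 6 had negative log2 fold changes, with a median of 0.002.

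The smallest p of any member belonged to Eif4g1 in the eIF4 group, the main scaffold of the cap-binding complex, which holds eIF4E, eIF4A and the poly(A)-binding protein. Eif4g1 (ENSMUSG00000045983.16, chromosome 16, 20668313 to 20692884, plus strand) stood at 437.3, 448.97 and 448.4 CPM in CD103KO libraries and at 402.95, 405.9 and 408.9 CPM in WT libraries. Every CD103KO library was above every WT library, and the gap between the groups exceeded the range within either one. The log2 fold change was 0.13 (SE 0.03), which did not pass (adjusted p = 0.310, edgeR; 0.0739, DESeq2). It was 0.12 with the term for Xist reads and ran from 0.12 to 0.14 over 17 fits, which reuse the same libraries. Eif4g3, a second scaffold, averaged 131.3 ± 7.17 CPM in CD103KO and 125.1 ± 7.90 CPM in WT libraries, at a log2 fold change of 0.07, which was 0.18 with the term for Xist reads (adjusted p = 0.650, edgeR). Eif4g2, a scaffold relative that lacks the eIF4E site, averaged 1283 ± 71.9 CPM in CD103KO and 1242 ± 54.5 CPM in WT libraries, and both overlapped.

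Eif4a2, a paralog of the RNA helicase Eif4a1, lay on the other side. Eif4a2 (ENSMUSG00000022884.15, chromosome 16, 23107444 to 23114136, plus strand) stood at 227.3, 212.9 and 198.6 CPM in CD103KO libraries and at 233.9, 247.1 and 226.5 CPM in WT libraries. CD103KO replicate 1 lay within the WT range and the other CD103KO libraries were below it. The log2 fold change was -0.15 (SE 0.06, adjusted p = 0.50, edgeR) and -0.09 with the term for Xist reads. Eif4a1 itself stood at 649.8, 712.8 and 721.5 CPM in CD103KO libraries and at 711.9, 642.2 and 661.4 CPM in WT libraries, a log2 fold change of 0.05 with overlapping groups. The cap-binding protein Eif4e averaged 84.5 ± 5.35 CPM in CD103KO and 81.7 ± 4.81 CPM in WT libraries, and the helicase cofactor Eif4b 697.1 ± 17.8 CPM in CD103KO and 708.7 ± 15.7 CPM in WT libraries. Of the 11 eIF4 genes, 8 had positive and 3 had negative log2 fold changes.

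Among the proteins that hold eIF4E away from eIF4G, Eif4ebp2 was the most abundant transcript per length, at 67.5 CPM per kb. Eif4enif1 was at 15.4, Eif4ebp1 at 2.82 and Eif4ebp3 at 1.61 CPM per kb. The libraries of Eif4ebp2 did not overlap those of any of these, by either length used. Eif4ebp2 stood at 394.0, 372.6 and 385.2 CPM in CD103KO libraries and at 402.5, 385.7 and 404.2 CPM in WT libraries, and Eif4ebp1 averaged 5.65 ± 0.65 CPM in CD103KO and 5.62 ± 0.51 CPM in WT libraries. Neither passed, with log2 fold changes of -0.05 and 0.01, which were -0.07 and -0.14 with the term for Xist reads. Eif5a, the hypusine-bearing factor that helps ribosomes through difficult peptide bonds, stood at 602.9, 638.7 and 654.0 CPM in CD103KO libraries and at 613.6, 584.1 and 615.9 CPM in WT libraries. The groups overlapped, and its log2 fold change was 0.06 (SE 0.04, adjusted p = 0.713, edgeR). Its paralog Eif5a2 was at -0.007, and at -0.18 with the term for Xist reads.

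Eif4a1 and Eif5a are the members nearest to Itgae on chromosome 11, at 3.42 and 3.17 Mb from it. Neither passed, at adjusted p = 0.828 and 0.713 (edgeR). The other members on that chromosome, Eif1, Eif4a3 and Eif4enif1, lie 27.2, 46.1 and 69.8 Mb away and had log2 fold changes of -0.02, 0.01 and 0.07, which were -0.04, -0.04 and -0.02 with the term for Xist reads.

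Apart from Eef1e1, which shares the name and had a log2 fold change of 0.007, all 5 reported elongation factor subunit genes had lower values in CD103KO libraries. The amounts were small, and none passed. Eef1a1 (ENSMUSG00000037742.14, chromosome 9, 78478449 to 78489151, minus strand), which carries aminoacyl-tRNA to the ribosome, stood at 19511, 20486 and 19793 CPM in CD103KO libraries and at 20584, 20643 and 21079 CPM in WT libraries. Eef2 (ENSMUSG00000034994.10, chromosome 10, 81176631 to 81182498, plus strand), the translocase, stood at 5910.04, 5833 and 5834 CPM in CD103KO libraries and at 5956, 6151 and 6421 CPM in WT libraries. In both genes every CD103KO library was below every WT library, though in each the highest CD103KO library and the lowest WT library lay close together. Their log2 fold changes were -0.06 (SE 0.03, adjusted p = 0.677, edgeR) and -0.08 (SE 0.04, adjusted p = 0.624, edgeR).

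The eEF1B subunits, which exchange GDP for GTP on eEF1A, were alike. Eef1b2 (ENSMUSG00000025967.16), the alpha exchange subunit, stood at 1333, 1371 and 1297 CPM in CD103KO libraries and at 1436, 1416 and 1395 CPM in WT libraries. Eef1d (ENSMUSG00000055762.16), the delta exchange subunit, stood at 246.2, 245.6 and 248.1 CPM in CD103KO libraries and at 267.0, 259.1 and 270.4 CPM in WT libraries. Eef1g (ENSMUSG00000071644.10), the gamma subunit that anchors them, stood at 1362, 1347 and 1359 CPM in CD103KO libraries and at 1388, 1394 and 1454 CPM in WT libraries. All 3 had every CD103KO library below every WT library, and the gap was widest relative to the spread for Eef1d. The log2 fold changes of Eef1b2, Eef1d and Eef1g were -0.09, -0.11 and -0.06, at adjusted p = 0.550, 0.449 and 0.690 (edgeR). Eef1e1, a small protein of the tRNA synthetase complex that shares the name, averaged 33.9 ± 1.07 CPM in CD103KO and 33.8 ± 2.93 CPM in WT libraries and overlapped.

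Leaving out Eef1e1, all 5 elongation factor subunit genes had every CD103KO library below every WT library. Over all 63 members 8 did so, against 7.36% of all genes tested, and Eef2k, Eif3f and Eif2d complete the 8. Above every WT library were 3 members, Eif3b, Eif4g1 and Eif5b, against 6.82% of all genes. The 5 elongation genes stayed below 0 in all 17 fits. Those fits reuse the same libraries, and groups that do not overlap leave the sign little room to change, so this is not separate support. With the term for Xist reads the 5 were at -0.08 (Eef1a1), -0.13 (Eef2), -0.06 (Eef1b2), -0.13 (Eef1d) and -0.10 (Eef1g). Among the most abundant genes of the table the lower side was common. Of 134 genes tested with at least 1000 CPM, 88 were below 0, with a median log2 fold change of -0.05, and 50 had every CD103KO library below every WT library. Eef1a1, Eef2, Eef1b2 and Eef1g belong to those 134 genes and lay near that median, while Eef1d is below 1000 CPM. Over all genes of 100 CPM or more, 36.5% of 1912 genes and 17 of 34 members were below 0. Both levels were chosen after the values had been seen. The 63 members took 3.95% to 4.07% of all counts in CD103KO libraries and 4.13% to 4.15% in WT libraries. Eef1a1 carries much of that share: the other 62 took 1.99% to 2.02% in CD103KO libraries and 2.05% to 2.06% in WT libraries. Such shares weigh members by level, and the largest of the 62 was Eef2, at a mean of 5859 CPM in CD103KO and 6176 CPM in WT libraries. Counted by gene, 35 of the 63 members were above 0 and 28 below.

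**Figure D3:**
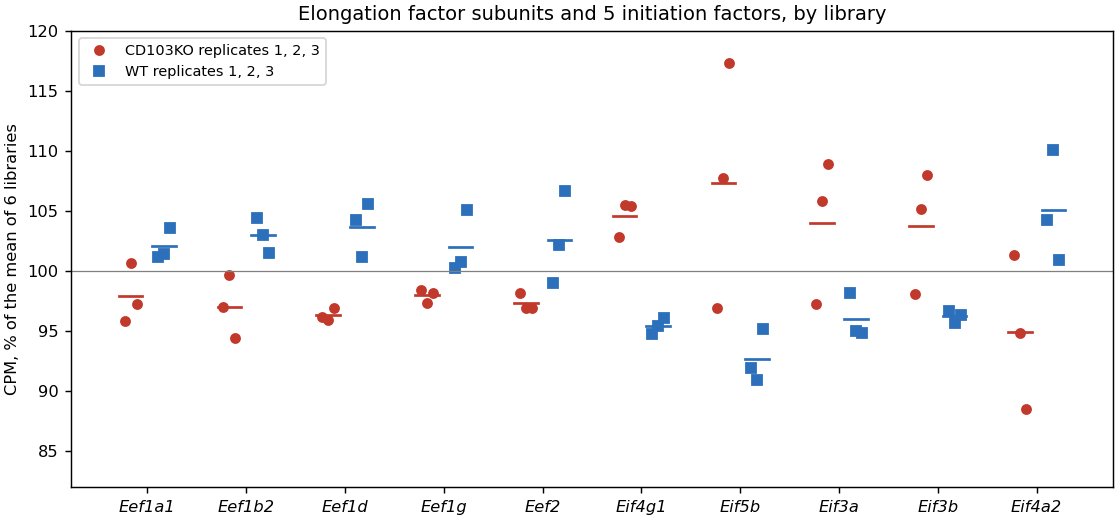
CPM of 10 members in each library, as a percentage of that gene's mean over the 6 libraries; circles are CD103KO and squares WT replicates 1, 2 and 3 from left to right, and bars are group means. For the 5 elongation factor genes on the left all circles lie below all squares, for Eif4g1, Eif5b and Eif3b all circles lie above, and for Eif3a and Eif4a2 the groups overlap.

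The enzymes that act on elongation factors were low in level. Eef2k, the kinase that stops eEF2, stood at 18.2, 18.7 and 18.2 CPM in CD103KO libraries and at 19.7, 20.3 and 19.0 CPM in WT libraries, with no overlap. Its log2 fold change was -0.10 (SE 0.06, adjusted p = 0.678, edgeR), and -0.04 with the term for Xist reads. Eef1akmt1, a lysine methyltransferase of eEF1A, stood at 21.5, 21.3 and 19.9 CPM in CD103KO libraries and at 23.9, 23.0 and 21.2 CPM in WT libraries, overlapping at a log2 fold change of -0.12. The methyltransferase genes Eef1akmt2, Eef2kmt and Eef1akmt4 were at -0.08, -0.11 and 0.03, also with overlapping groups. With the term for Xist reads Eef1akmt1, Eef1akmt2, Eef2kmt and Eef1akmt4 were at -0.02, -0.06, -0.04 and 0.003. Eef1akmt3 had at most 2 counts in a library.

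Levels compared per length ran over several orders of magnitude. Per kb of longest protein-coding transcript and over all 6 libraries, Eef1a1 was at 11340 CPM per kb and Eef2 at 1948, each clear of the next gene in every library. By CPM, Eef1a1 ranked 1 and Eef2 ranked 5 among all genes of the table. Eef1g at 742.6 and Eef1b2 at 708.9 CPM per kb came next and overlapped, and their order reversed with the union of exons. Eif3h at 455.3 and Eif5a at 430.2 CPM per kb followed, also overlapping. The lowest protein-coding members were Eif4ebp3, Eif5a2 (a paralog of Eif5a, at 2.21 CPM per kb) and Eif4ebp1, whose libraries overlapped their neighbours in the order. The genes for eIF3 subunits, which share 1 complex, ran from 3.22 (Eif3j2) to 455.3 CPM per kb.

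**Figure D4:**
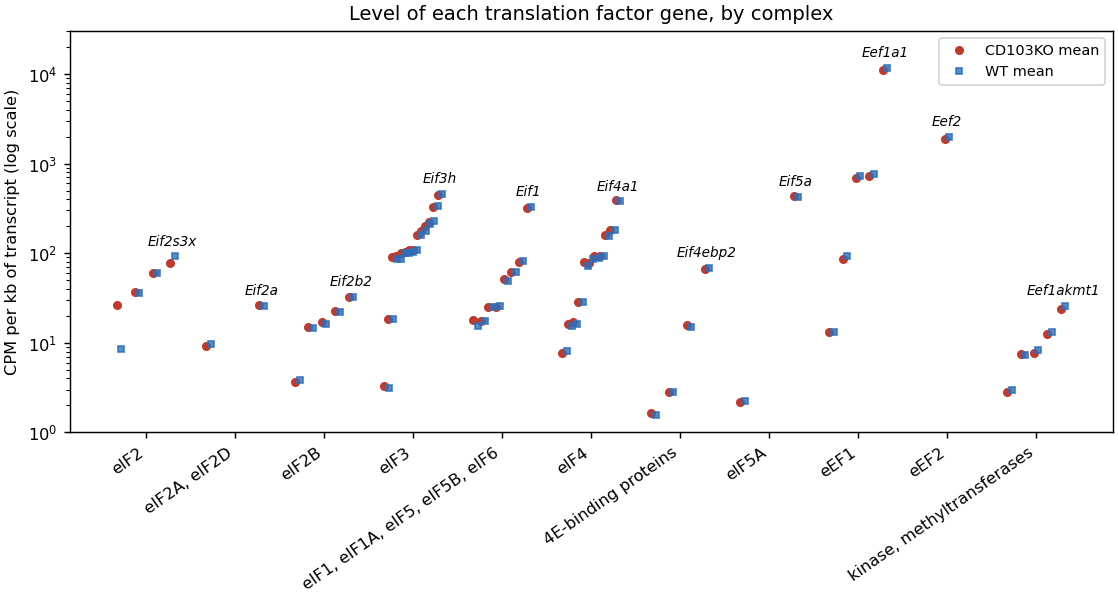
Level of each protein-coding member as CPM per kb of longest protein-coding transcript, on a log axis, with circles for the CD103KO mean and squares for the WT mean, arranged by complex. The group means lie on top of each other at nearly every gene, Eef1a1 and Eef2 stand highest, and the gene whose means part is Eif2s3y, at the left end of eIF2.

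Several of these mRNAs belong to the terminal oligopyrimidine (TOP) class, whose first bases are a C followed by a run of C and T and whose translation depends on mTORC1. The 9 members known as such, Eef1a1, Eef1b2, Eef1d, Eef1g, Eef2, Eif3e, Eif3f, Eif3h and Eif4b, were all below 0, at a median log2 fold change of -0.06. For comparison, 51.0% of all genes tested and 88 of 134 genes of at least 1000 CPM were below 0. Of the 9, Eef1a1, Eef1b2, Eef1g and Eef2 alone reach 1000 CPM. Eef1a1, Eef1b2, Eef1d, Eef1g and Eef2 are the elongation genes already found lower above, so for them this is not a separate result. Eif4b was no longer below 0 with the term for Xist reads, at 0.002. Of these 9, 0 passed with edgeR (0.223% of all genes did), and 2 were at an unadjusted p under 0.05 (8.73% of all genes). The 2 are Eef1b2 and Eef1d, already counted among the elongation genes. Start regions of 4 members are shown because they carry such a run at the annotated start: Eef1a1 and Eif3f from that list, and both gamma subunit genes. Each spans 30 bases before and 30 bases from the RefSeq start on GRCm38.p6, read along the gene's strand, with the run of C and T at the start in capitals.
Eef1a1: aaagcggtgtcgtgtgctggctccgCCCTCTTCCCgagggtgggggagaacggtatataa
Eif3f: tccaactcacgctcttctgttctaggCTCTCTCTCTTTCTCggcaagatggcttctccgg
Eif2s3x: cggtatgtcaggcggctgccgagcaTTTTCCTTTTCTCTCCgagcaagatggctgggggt
Eif2s3y: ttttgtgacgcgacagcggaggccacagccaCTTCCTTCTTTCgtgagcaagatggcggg
They lie at chr9:78481695-78481754 (minus strand), chr7:108934385-108934444 (plus strand), chrX:94212622-94212681 (minus strand) and chrY:1010565-1010624 (plus strand). A C with at least 4 more C or T bases, beginning within 5 bases of the start on the gene's own strand, was found in 11 of 47 members that have a RefSeq start window and in 2 of 5 such members known as TOP mRNAs. Counted by window, since a member can have several, it was in 12 of 61 member windows (19.7%) and in 18.3% of 32851 windows in all. In the Eef1a1 window the letters TATAA, the core of a TATA box, come after the annotated start, although such a box usually lies before a start. A match is a run of letters at an annotated start and does not show where transcription starts in these cells.

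In the following lists of genes linked to these factors, no gene tested passed either. Of 8 genes for eIF2 kinases and the phosphatase that reverses them, 0 passed with edgeR, with 2 at an unadjusted p under 0.05. For this and the following lists, 8.73% of all genes tested were at that level and 0.223% passed. Eif2ak2, the double-stranded RNA kinase PKR and an interferon-induced gene, averaged 50.1 ± 2.88 CPM in CD103KO and 40.9 ± 3.05 CPM in WT libraries, higher in every CD103KO library (log2 fold change 0.29, SE 0.07, adjusted p = 0.240, edgeR). Ppp1r15b, the constitutive phosphatase subunit, was at -0.10. The integrated stress response is the program that follows eIF2 alpha phosphorylation. Of its listed targets 14 were tested and 0 passed, and 1, Ddit4, was at an unadjusted p under 0.05 with a log2 fold change of -0.19. Of 20 genes between mTORC1 and the 4E-binding proteins or S6 kinase, 0 passed and 3 were at an unadjusted p under 0.05. Those were Tsc2 at 0.13, Rptor at 0.12 and Rps6 at -0.08, an inhibitor of the pathway, a subunit of mTORC1 and a ribosomal protein. Among 8 poly(A)-binding proteins and partners, 9 hypusine and diphthamide enzymes and 10 mitochondrial translation factors, 0 passed and 0 were at an unadjusted p under 0.05. Of 16 termination, recycling and rescue genes 15 were tested and 0 passed, while Mcts2 and Pelo were lower at an unadjusted p under 0.05, at -1.03 and -0.17. Mcts2 is near the floor, at a mean of 0.14 CPM in CD103KO and 0.29 CPM in WT libraries, below the 1 CPM asked of members.

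Several members have near-identical copies or overlapping neighbours, which limits how their counts can be read. Of the 63 members, 30 share at least 90% identity over 300 bases or more with another annotated gene, and 36 had whole expected counts in all 6 libraries. For Eef1a1 there were 15 such copies, summing to 0.278% of its own CPM. The share was larger for Eif1, at 15.3%, most of it the protein-coding gene Emd at 55.8 CPM, and for Eif3j1, at 7.66%. None of the copies of any member was called. Eif4a-ps4 and Eif1-ps1 resemble Eif4a1 and Eif1, which are far more abundant, and Eif3j2 resembles Eif3j1. Eif4ebp3 shares its span with AC115631.1 on the same strand. Beside Eif2d, the members Eif2a, Eif2b4, Eif1ad, Eif4enif1, Eef2kmt and Eef1akmt4 overlap a more abundant gene on the opposite strand.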

How the data were processed

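RNA-seq libraries of 3 CD103KO and 3 WT samples were compared. Per the labels' protocols, a stranded mRNA ligation kit was used on column-purified RNA. The submitters' processing notes name RSEM, STAR 2.7.0f, cutadapt 1.18 and bcl2fastq 2.20, and the builds GRCm38 and mm10; the annotation release and the strand setting are not stated in the sources used here. The file that the authors deposited holds 1 expected count (an estimate, without normalization) per gene and library. Fractions occurred in 6.48% of entries, and the test took them rounded to whole numbers. The identifiers, 55450 of 55450, matched GENCODE M21, from which coordinates and lengths were taken. One count equals 0.0106 to 0.0146 CPM, and a limit set from 3 counts covers counting error alone. Replicates of a group were further apart than sampling noise (a ratio of chi-square to degrees of freedom from 9.16 to 18.6), so none was merged as a repeat deposit; whether they are separate animals is not stated.

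The test of CD103KO against WT used edgeR 4.0.16 under R 4.3.3 (filterByExpr with a minimum count of 10, TMM, quasi-likelihood F test, Benjamini-Hochberg adjustment at 0.05 over 13470 genes), checked on simulated counts. CPM use TMM-scaled library sizes. Tried as alternatives were upper-quartile and RLE factors, no filter, 1 CPM in 3 libraries, DESeq2 1.42.0, limma-voom (limma 3.58.1), unrounded counts, the replicate number as a block, a term for libraries above 1 CPM of Xist, each library left out, other member thresholds and, chosen after seeing the data, the 4 libraries without Xist reads alone. Copies were searched with megablast (BLAST+ 2.17.0). Start windows are RefSeq sequences on GRCm38.p6.

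The members and gene lists were chosen with earlier results of these data known. Values in every library were given for members at an unadjusted p under 0.05, for Eif2s3x and Eif2s3y, for members within 20 Mb of Itgae, for the 5 members of highest count per length and for leading members of each complex; of each context list, called genes and up to 3 of smallest p could be named. Eef2k (in every library), Gm2223, Rassf5, AC115631.1 and Emd fall outside that rule and were picked with their values in view. One marker gene is not reported here by itself.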

Additional observations from a re-analysis of the deposited data

How the results depend on the processing

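No member passed in any of the fits of all 6 libraries (edgeR with other factors or filters, unrounded counts, a replicate block or a term for Xist reads, DESeq2 and limma-voom). With libraries left out in turn, 0 to 2 members passed: the 2 were Eif2s3x and Eif2s3y, without WT replicate 3. Members at an unadjusted p under 0.05 numbered 3 to 9 with a library left out and 5 in the 4 libraries without Xist reads alone, against 8. Eif2s3x reversed to 0.045 with the term for Xist reads and to 0.0455 in those 4 libraries, fits of nearly the same contrast. Over all genes, 30 calls became 112 with no filter, 137 with DESeq2, 15 with the term for Xist reads, 13 in those 4 libraries and 19 to 59 with a library left out (59 without CD103KO replicate 1, 52 without WT replicate 3). The cause was not tested. With the replicate number as a block, 24 genes and 0 members were called and 6 members were at an unadjusted p under 0.05. Same-numbered libraries correlated at -0.28, -0.03 and 0.03, and unlike-numbered ones from -0.25 to 0.26. These correlations do not show whether the numbers pair the samples. Depth was ample for most members, while 3 libraries a group and low levels (Eif4ebp3) limit precision.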
